A study of Microtus ochrogaster with 40 samples.

Results

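Fos, Fosb, Junb, Egr1, Egr3, Nr4a1, Npas4 and Arc are immediate early genes, chosen here by name, and all 8 are among the 19130 genes listed in the files. The files name them ENSMOCG00000000968, ENSMOCG00000001596, ENSMOCG00000003238, ENSMOCG00000011721, ENSMOCG00000014744, ENSMOCG00000001375, ENSMOCG00000018719 and ENSMOCG00000014212 in this order. Single nuclei from the nucleus accumbens were sequenced for RNA in 40 prairie voles (Microtus ochrogaster), a socially monogamous rodent, with 1 library per animal. Each vole had been housed for 16 days either with a mate of the other sex or with a peer of its own sex. There were 11 female and 11 male mate animals, and 8 female and 10 male peer animals, so that 22 animals were mate-paired and 18 peer-paired. No group of animals without a partner, at another time or at rest is among these samples, and the labels give neither genotype nor age. They also do not say which animals lived together, and cage partners may not be independent samples.

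Immediate early genes are switched on within minutes of neuronal firing and growth factor signals, without a need for new protein, and their transcripts are short-lived. Calcium and cAMP signals reach them through kinases and the factors CREB, SRF and MEF2, which wait on their promoters. In the striatum they are widely used as a record of recent activity, for example after drugs, reward or social contact. Fos and Fosb encode partners of Jun proteins in the AP-1 transcription factor, and Junb encodes one of those Jun proteins. Egr1 and Egr3 encode zinc finger factors, Nr4a1 an orphan nuclear receptor, and Npas4 a factor of the bHLH-PAS family that responds chiefly to calcium entry. Arc differs from the rest in being an effector, a protein that acts at synapses on the traffic of AMPA receptors.

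The libraries held 194518 barcodes and 353673015 UMIs (unique molecular identifiers, which count captured RNA molecules). After filters 178387 nuclei remained, 1767 to 7666 per animal, and their summed UMIs per animal ran from 2951421 to 13900767. Male mate 2 stood apart: its median of 660 UMIs per nucleus was the lowest, the highest in any animal was 2216, and all 6375 barcodes under 500 UMIs were in its library. Female peer 1 had the highest median mitochondrial share, 0.728% of UMIs. No pair of libraries shared more than 146 barcodes, and none shared more than 2.22% of its smaller library. Nuclei were clustered without the 8 genes and other activity-regulated genes, and named from marker lists. The classes used most are D1 and D2 medium spiny neuron-like nuclei (31354 and 29664), eccentric medium spiny neuron-like nuclei (15064) and glutamate neuron-like nuclei (24019), together called the 4 neuron classes. Glutamate neurons are not a main cell type of the accumbens, and whether these nuclei came from neighbouring tissue was not tested. Clusters left unnamed held 13.7% of nuclei. The largest of them, cluster 6 (9834 nuclei), had 7 glutamate neuron markers past the cutoff but more leading genes from the list of other GABA neurons. It is therefore not in the glutamate neuron-like class. With likely doublets kept, a cluster of 9783 nuclei that shared leading genes with it, such as Cck and Ccn3, was named glutamate neuron-like.

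The levels differed widely between animals. Over all nuclei, fewer nuclei of a class and less RNA per nucleus cannot be told apart, so classes are also given one by one. Levels are CPM, the UMIs of a gene scaled to the same total of UMIs in every animal's nuclei, and since the files give no transcript lengths, they are compared between animals and classes but not between genes. Over all nuclei Fos ran from 14.6 CPM in male peer 2 to 120 CPM in female peer 3 (median 44.0 CPM, mean 51.1 ± 25.2, SD, n = 40), an 8.23-fold range. Fosb, whose splice product accumulates in the striatum on repeated stimulation, ran over a 13.1-fold range, from 6.39 CPM in male peer 2 to 83.6 CPM in male mate 5 (median 21.3). Splice forms were not separated in these counts. Arc ran from 77.0 CPM in female peer 6 to 580 CPM in male mate 5 (median 236, mean 244 ± 111, SD).

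Npas4 ran from 59.1 CPM in female peer 1 to 340 CPM in male mate 5, with a median of 141 CPM. Nr4a1 ran from 36.1 CPM in male mate 7 to 208 CPM in male mate 5, with a median of 75.0 CPM. Egr1 and Egr3 spanned less, 108 to 374 CPM (median 246) and 43.3 to 155 CPM (median 79.8), and male mate 5 was highest in both. Junb was the steadiest of the 8, from 18.8 CPM in female peer 6 to 46.6 CPM in female mate 5, a 2.48-fold range. Male mate 5 was thus the highest animal for 6 of the 8 genes, and female peer 3 lay among the 6 highest for all but Egr3. Many of the results that could rest on these 2 animals are therefore also given without them.

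The biological coefficient of variation (BCV), the spread between animals that edgeR estimates beyond counting error, was 0.524 for Fosb, 0.439 for Fos, 0.421 for Arc and 0.421 for Npas4. The median of the 13731 genes tested was 0.180. These 4 genes lay at percentiles 95.7, 92.9, 92.1 and 92.1 of all genes, Nr4a1 at 89.5, Egr1 at 81.6, Egr3 at 70.0 and Junb at 63.4. In this order Fosb was the most and Junb the least variable member.

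By the mean of each class of nuclei, Fos, Egr1, Nr4a1 and Arc were highest in glutamate neuron-like nuclei. Not every cluster within the classes kept this order, as described below. By mean level 6 of the 8 genes were higher in each of the 4 neuron classes than in any other class. The exceptions were Fos, whose somatostatin interneuron-like and other GABA neuron-like means exceeded that of D1 nuclei, and Junb, whose vascular-like and microglia-like means were the highest of all. Neighbours in each gene's order of mean levels were compared within animals by a sign-flip permutation test on log2(CPM + 5), with Benjamini-Hochberg adjustment over all genes measured in that pair of classes. Of 96 such neighbouring pairs, 32 were told apart (adjusted p under 0.05), where 66.8% of all gene and class-pair comparisons in the series were. Neighbours were by construction alike in level, so the 2 shares are not counts of the same kind.

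Each of the 4 neuron classes joins several clusters of nuclei. D1 holds cluster 1 (29210 nuclei) and cluster 20 (2144), D2 holds cluster 2 (24460) and cluster 10 (5204), eccentric holds cluster 5 (10059) and cluster 11 (5005), and glutamate holds clusters 8 (9038), 9 (6857), 12 (4806) and 17 (3318). The clusters of a class differed in these genes. Cluster 10, led by Cpne7 and the striatal receptor genes Gpr6 and DRD2, averaged 422 ± 160 CPM (SD) for Egr1 and 505 ± 290 CPM for Arc, where cluster 2 of the same class averaged 184 ± 54.9 and 203 ± 110 CPM (n = 40 animals). The comparisons of these classes were therefore repeated between the largest cluster of each, an alternative chosen after seeing the data, in which 21.3% of all genes were told apart between D2 and D1, 51.2% between eccentric and D2, 52.4% between eccentric and D1, 67.7% between glutamate and eccentric, 72.8% between glutamate and D2 and 72.3% between glutamate and D1 nuclei. Between the largest clusters of D2 and D1 only Npas4 of the 8 was told apart.

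Fos averaged 108 ± 66.0 CPM (SD, n = 40) in glutamate neuron-like nuclei, 53.4 ± 31.2 CPM in eccentric, 43.6 ± 27.3 CPM in D2 and 32.9 ± 17.9 CPM in D1 medium spiny neuron-like nuclei. It was higher in glutamate than in eccentric nuclei in 37 of 40 animals, by 0.94 on the log2 scale (adjusted permutation p = 2.20e-05). Each of the eccentric, D2, somatostatin, other GABA and D1 classes that follow could not be told apart from the next in this order, with adjusted permutation p from 0.0590 to 0.761. Classes that are not neighbours could: Fos was higher in D2 than in D1 nuclei by 0.33 (31 of 40 animals, adjusted permutation p = 0.00105) and higher in eccentric than in D1 nuclei by 0.57 (34 of 40, adjusted permutation p = 3.37e-05). The eccentric minus D1 difference of Fos was 0.63 between the largest clusters (adjusted permutation p = 3.93e-05), and D2 minus D1 was 0.08 (adjusted permutation p = 0.488). Eccentric nuclei there exceeded D2 nuclei by 0.54 in 31 of 40 animals (adjusted permutation p = 3.98e-05). Glutamate cluster 9 averaged 57.3 ± 32.8 CPM of Fos (SD, n = 39), near eccentric cluster 5 at 54.2 ± 33.3 CPM. The other glutamate clusters averaged 91.0 to 128 CPM, and D2 cluster 10 averaged 102 CPM. The place of the somatostatin interneuron-like class, at 37.9 ± 17.2 CPM, between D2 and D1 spiny nuclei was seen for Fos alone by mean level.

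Fosb averaged 40.8 ± 38.4 CPM (SD, n = 40) in glutamate neuron-like, 36.2 ± 29.1 CPM in D2, 31.7 ± 24.5 CPM in eccentric and 24.1 ± 15.1 CPM in D1 nuclei. The 3 highest were not told apart over the whole classes, and D1 was lower than eccentric (adjusted permutation p = 0.0389, lower in 27 of 40 animals). Between the largest clusters eccentric exceeded D2 as well, by 0.32 (adjusted permutation p = 0.0145), where eccentric minus D2 over the whole classes was -0.19. Glutamate neuron-like nuclei there exceeded D2 by 0.31 (28 of 39 animals, adjusted permutation p = 0.0333), against 0.04 over the whole classes (adjusted permutation p = 0.759). Not every cluster kept this order. Glutamate clusters 8, 9, 12 and 17 averaged 35.4, 18.0, 55.0 and 46.3 CPM of Fosb, and D2 clusters 2 and 10 averaged 25.1 and 97.4 CPM. Fosb was higher in D2 than in D1 nuclei by 0.43 over the whole classes (29 of 40 animals, adjusted permutation p = 9.24e-04) and by 0.06 between the largest clusters (adjusted permutation p = 0.737). Eccentric clusters 5 and 11 averaged 34.3 and 19.7 CPM of Fosb. Both lay below D2 cluster 10, and cluster 11 lay below D2 cluster 2 as well. Unlike Fos, Fosb was low in somatostatin interneuron-like nuclei, at 5.37 ± 5.16 CPM. Junb averaged 41.0 ± 26.4 CPM (SD, n = 38) in vascular-like and 39.4 ± 28.8 CPM (n = 39) in microglia-like nuclei, and 29.5 to 35.8 CPM in the 4 neuron classes. No neighbours among these 6 were told apart. Over the whole classes Junb was higher in eccentric than in D1 nuclei by 0.20 (29 of 40 animals, adjusted permutation p = 0.00373) and higher in glutamate neuron-like than in D1 nuclei by 0.19 (26 of 40, adjusted permutation p = 0.00883), and both held between the largest clusters (0.31 and 0.21). There eccentric also exceeded D2, by 0.26 (adjusted permutation p = 0.00523). By cluster, Junb averaged 37.7 and 25.7 CPM in eccentric clusters 5 and 11, and 30.0 and 46.5 CPM in D2 clusters 2 and 10. Junb was higher in D1 than in immature neuron-like nuclei (10.8 ± 18.1 CPM), in 31 of 38 animals (adjusted permutation p = 3.83e-05).

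Egr1 averaged 442 ± 168 CPM (SD, n = 40) in glutamate neuron-like, 293 ± 93.3 in eccentric, 224 ± 65.2 in D2 and 186 ± 51.6 CPM in D1 nuclei. Between whole classes each step was told apart, by 0.54 (36 of 40 animals), 0.37 (35 of 40) and 0.26 (34 of 40) on the log2 scale, with adjusted permutation p of at most 9.48e-05. The last step did not hold between the largest clusters, where D2 minus D1 was -0.02 (adjusted permutation p = 0.749) from means of 184 and 187 CPM, while the first 2 were both 0.70 there. Glutamate cluster 9, at 309 ± 120 CPM (SD, n = 39), lay near eccentric cluster 5, at 306 ± 105 CPM (n = 40). Egr3 did not follow this order. It averaged 105 ± 25.7 CPM in eccentric and 100 ± 24.9 CPM in D2 nuclei, which were not told apart over the whole classes (0.05, adjusted permutation p = 0.369). Eccentric exceeded D2 by 0.21 between the largest clusters, in 30 of 40 animals (adjusted permutation p = 0.00160). The clusters left out of that test did not keep this order. Eccentric cluster 11 averaged 71.0 CPM, below D2 cluster 2 at 97.9 CPM, and D2 cluster 10 averaged 115 CPM, as did eccentric cluster 5. D2 exceeded D1 (90.3 ± 19.6 CPM) in 27 of 40 animals (adjusted permutation p = 0.00518), by 0.14 on the log2 scale, and by 0.10 between the largest clusters (adjusted permutation p = 0.113). Egr3 in glutamate neuron-like nuclei was 86.9 ± 34.3 CPM, not told apart from D1 (adjusted permutation p = 0.0528). It was lower than in eccentric nuclei (-0.30, 30 of 40 animals, adjusted permutation p = 2.65e-04) and D2 nuclei (-0.24, 31 of 40, adjusted permutation p = 8.68e-05), and between the largest clusters the first held (-0.27) and the second did not (-0.05, adjusted permutation p = 0.499). The glutamate clusters differed in Egr3: cluster 9 averaged 46.3 CPM, where clusters 8, 12 and 17 averaged 98.6, 114 and 102 CPM.

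Nr4a1 had the same order of class means as Egr1, with 141 ± 81.7 CPM (SD, n = 40) in glutamate neuron-like, 103 ± 47.0 in eccentric, 86.9 ± 39.0 in D2 and 75.6 ± 31.4 CPM in D1 nuclei. Between whole classes each step was told apart, the last by 0.19 on the log2 scale (26 of 40 animals, adjusted permutation p = 0.0190). Between the largest clusters that last difference had the other sign, -0.19 (adjusted permutation p = 0.0560): cluster 10 averaged 201 CPM of Nr4a1, cluster 2 63.9 and D1 cluster 1 73.2 CPM. Arc had the same order, 512 ± 264, 293 ± 137, 252 ± 125 and 196 ± 93.7 CPM. Arc in glutamate neuron-like nuclei ran from 96.0 CPM in female peer 6 to 1249 CPM in male mate 5. The D2 level of Arc exceeded that of D1 in 33 of 40 animals, by 0.35 on the log2 scale (adjusted permutation p = 1.74e-04), and between the largest clusters by 0.03 in 24 of 40 (adjusted permutation p = 0.807). The steps from eccentric to D2 and from glutamate to eccentric nuclei held there for Nr4a1 (0.74 and 0.49) and for Arc (0.67 and 0.60). Glutamate clusters 8 and 12 averaged 167 and 163 CPM of Nr4a1. Clusters 9 and 17 averaged 98.1 and 114 CPM, near eccentric cluster 5 at 112 CPM. Cluster 10 of D2 had a higher Nr4a1 mean than every glutamate cluster. Arc averaged 375 CPM in glutamate cluster 9, above eccentric cluster 5 (317 CPM) and below D2 cluster 10 (505 CPM).

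Npas4 had like means in glutamate neuron-like (204 ± 106 CPM, SD, n = 40), D2 (198 ± 90.8 CPM) and D1 (191 ± 82.1 CPM) nuclei, which were not told apart over the whole classes. It was lower in eccentric nuclei, at 147 ± 68.2 CPM, than in D1 nuclei in 36 of 40 animals (adjusted permutation p = 3.37e-05). The clusters of each spiny class differed in Npas4: eccentric clusters 5 and 11 averaged 165 and 83.0 CPM, D1 clusters 1 and 20 184 and 306 CPM, and D2 clusters 2 and 10 170 and 342 CPM. Over the whole classes eccentric minus D1 was -0.39 on the log2 scale and eccentric minus D2 -0.42 (lower in 33 of 40 animals, adjusted permutation p = 3.64e-05). Between the largest clusters the first was -0.19 (lower in 27 of 40 animals, adjusted permutation p = 0.00781) and D2 minus D1 was -0.13 (lower in 28 of 40, adjusted permutation p = 0.0291), while eccentric and D2 nuclei were not told apart (-0.06, adjusted permutation p = 0.536). Glutamate neuron-like nuclei there exceeded D2 by 0.26 (26 of 39, adjusted permutation p = 0.00835) and eccentric nuclei by 0.30 (28 of 39, adjusted permutation p = 0.00163), and were not told apart from D1 (0.12, adjusted permutation p = 0.170). The other 7 members had a higher mean in eccentric than in D1 nuclei, and were higher by the test between the largest clusters too. Eccentric cluster 11 was not in that test. Its means lay below those of D1 cluster 1 for Fosb (19.7 and 23.4 CPM), Junb (25.7 and 28.9), Egr3 (71.0 and 90.3) and Nr4a1 (71.9 and 73.2). They lay near them for Arc (197 and 196) and above them for Fos (46.3 and 31.5) and Egr1 (240 and 187). Of all genes, 27.1% were told apart between D1 and D2 nuclei, 57.7% between D1 and eccentric, 55.0% between D2 and eccentric, 73.1% between eccentric and glutamate, 77.5% between D2 and glutamate and 77.4% between D1 and glutamate nuclei.

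**Figure D1:**
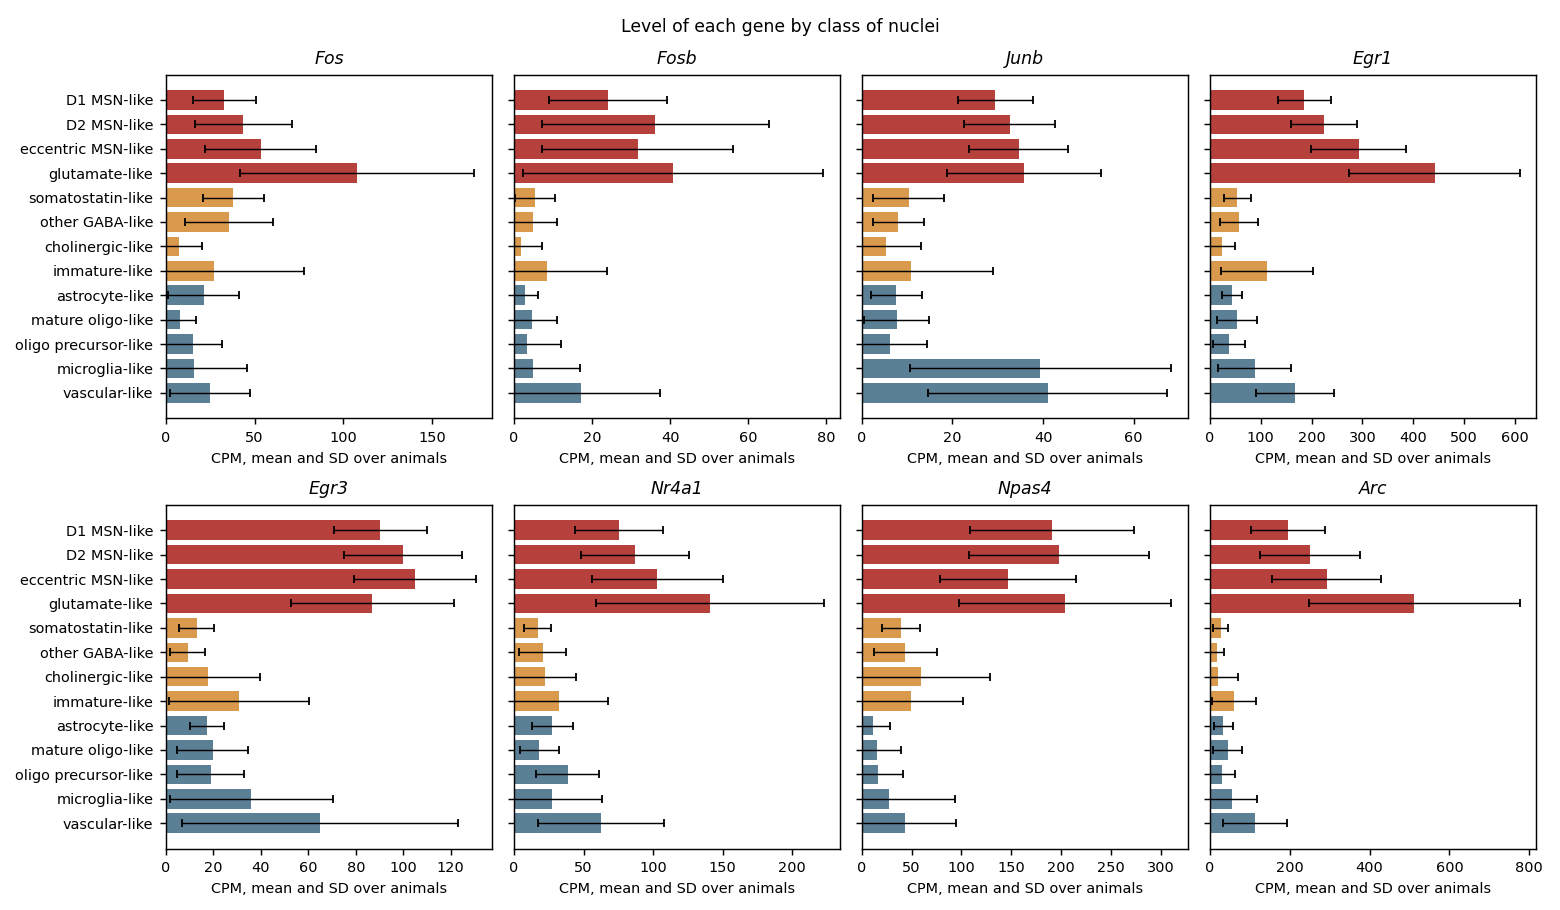
Bars give the mean level of each gene in CPM (x axis, one scale per gene) and lines the SD over animals, by class of nuclei; red bars are the 4 neuron classes, orange bars other neuron classes and blue bars glia and vascular cells, with MSN for medium spiny neuron and oligo for oligodendrocyte. Fos, Egr1, Nr4a1 and Arc stand highest in glutamate neuron-like nuclei, Npas4 is level over glutamate, D1 and D2 nuclei, and Junb is as high in microglia-like and vascular-like as in neuron nuclei.

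RNA set free from broken cells enters every droplet, so a low level in glia need not be expression. A list of 8 pan medium spiny neuron markers in astrocyte-like nuclei summed to 21.4% of its D1 level, in mature oligodendrocyte-like nuclei to 13.7%, in microglia-like nuclei to 21.7% and in vascular-like nuclei to 38.4%. In astrocyte-like nuclei Egr1 (23.3% of its D1 level), Egr3 (19.1%) and Arc (17.4%) lay near the marker share. Npas4 (5.73%) and Fosb (11.7%) lay below it, and Nr4a1 (36.3%) and Fos (64.3%) lay above it. Junb averaged 7.60 CPM in astrocyte-like and 29.5 CPM in D1 nuclei. These shares depend on D1 as the reference. In glutamate neuron-like nuclei Fos averaged 108 and Nr4a1 141 CPM, against 21.2 and 27.4 CPM in astrocyte-like nuclei. In microglia-like nuclei Junb was at 134% of its D1 level, and in vascular-like nuclei at 139%. The part of free RNA in each of these levels was not tested.

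The share of nuclei with at least 1 UMI of a gene depends on depth, and its order over classes was not that of CPM for each gene. In D1 medium spiny neuron-like nuclei (median 2116 UMIs) the mean share was 24.1 ± 5.79% (SD, n = 40) for Egr1, 20.8 ± 4.73% for Npas4, 18.1 ± 4.93% for Arc, 16.7% for Egr3, 10.2% for Nr4a1, 6.32% for Junb, 4.80% for Fos and 3.38% for Fosb. In glutamate neuron-like nuclei (median 2475 UMIs) Egr1 was met in 43.3%, Arc in 42.0% and Fos in 15.5% of nuclei. Mature oligodendrocyte-like nuclei, in which these genes should be low, had shares of 3.12% for Egr1, 2.46% for Arc and 0.592% for Fos at a median of 681 UMIs. Egr3 was met in 18.3% of glutamate neuron-like, 17.4% of D2 and 15.1% of eccentric nuclei (median 1655 UMIs), while its class mean CPM was highest in eccentric and lowest in glutamate nuclei of the 4. Junb was met in 8.90% of glutamate neuron-like and 2.93% of microglia-like nuclei (median 617 UMIs), and Fos in 7.25% of somatostatin interneuron-like nuclei, above the 6.25% of eccentric ones.

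Thinned to 500 UMIs in every nucleus, which left none out, the shares of all 8 genes in each of the 4 neuron classes were lower and above those of mature oligodendrocyte-like nuclei. This did not hold for each of the other neuron classes: Arc was met in 1.08% of somatostatin interneuron-like, 0.780% of other GABA neuron-like and 0.720% of cholinergic interneuron-like nuclei, below its 1.30% in mature oligodendrocyte-like nuclei. Egr1 was then met in 16.1% of glutamate neuron-like, 7.58% of D1 and 1.62% of mature oligodendrocyte-like nuclei. Arc was met in 16.5%, 6.72% and 1.30% of them, and Npas4 in 7.61%, 7.31% and 0.269%. The thinned shares of Egr3 were 4.42% in eccentric, 4.41% in D2, 4.08% in D1 and 3.79% in glutamate neuron-like nuclei, in the order of its CPM. Junb was then met in 2.01% of microglia-like nuclei and 1.47% to 1.73% of the 4 neuron classes, and Fos in 1.51% of somatostatin interneuron-like, 2.26% of eccentric and 1.77% of D2 nuclei. Where a gene was met at all it was mostly by few UMIs: an Arc-positive D1 nucleus held a mean of 2.60 Arc UMIs and at most 40, and a Junb-positive one a mean of 1.13.

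The genes were met together in the same nuclei more often than independent detection would give. The number of nuclei expected with a UMI of both genes was computed within each animal, class and depth bin (10 bins of UMIs per nucleus), so that depth, animal and class do not by themselves raise the ratio of observed to expected. Over the 100101 nuclei of the 4 neuron classes, the mean ratio over animals lay above 1 for all 28 pairs. It was highest for Fos with Fosb, both of the Fos family, at 4.14 ± 1.03 (SD, n = 31 animals with at least 5 nuclei expected), where 1725 nuclei held both and 429 were expected.

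Fosb with Nr4a1 (3.12 ± 0.752, SD, n = 35), Fos with Nr4a1 (2.82 ± 0.706, n = 40) and Fosb with Junb (2.80 ± 0.518, n = 30) followed. Pairs of widely detected genes had lower ratios, with 1.75 ± 0.180 for Npas4 with Arc and 1.60 ± 0.204 for Egr1 with Arc (n = 40). The lowest was Egr1 with Egr3, at 1.29 ± 0.118. For 27 of the 28 pairs the ratio was above 1 in every animal that could be counted, and for Egr3 with Npas4 in 39 of 40, with 0.907 in the lowest. With clusters in place of classes, chosen after seeing the data, the ratios were 1.26 to 3.64, Fos with Fosb again the highest, and above 1 in every animal counted for 27 pairs. A ratio cannot exceed the inverse of the larger share, so ratios of pairs with different shares are not on the same footing.

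Over the 21 pairs that could be counted in all 4 classes, the median ratio was 1.94 in D1, 1.91 in D2, 1.85 in eccentric and 1.48 in glutamate neuron-like nuclei, from different numbers of animals. Thinned to 1000 UMIs per nucleus, 27 pairs could be counted, with a median of 2.55, where the same pairs had 1.89 before thinning in nuclei of at least 1000 UMIs. The thinned ratios were computed within animal and class without depth bins, so these medians differ in more than the thinning. Fos with Fosb rested on 5 animals after thinning. For each of the 8 genes, the ratio was also computed with every other gene met in enough nuclei. The median over all those genes was 0.968 to 1.02 and the 95th percentile 1.08 to 1.33, by gene and class. The ratio of a pair of members is the same from either gene, and it was ranked from the side of each. Of the 224 ranks given in this way, 222 lay in the top 1% of genes, so these are not 224 separate ratios. No test over nuclei was made.

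Counted by nucleus, 43939 of the 100101 nuclei (43.9%) had no UMI of any of the 8 genes, and 31895 were expected from independent detection. At least 4 of the 8 were met in 9247 nuclei (9.24%), with 3988 expected (3.98%), and all 8 in 325 nuclei, with 1.82 expected. In each of the 40 animals the share with at least 4 was above the expected share. It ran from 1.56% in male mate 2, the library of lowest depth, to 22.6% in female peer 3, with a median of 9.68%. Nuclei with at least 4 made up 6.91% of D1, 7.75% of D2, 7.12% of eccentric and 15.4% of glutamate neuron-like nuclei. Independent detection gave 1.95%, 2.40%, 2.32% and 9.64%. Observed over expected was thus 3.54, 3.23, 3.07 and 1.60, lowest in the class with the highest share. Male mate 2 held 2470 of the 24019 glutamate neuron-like nuclei, and 1.70% of these had at least 4. As means over animals the shares were 7.06%, 7.88%, 7.71% and 18.1% in the same order of classes.

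By group the share of nuclei with at least 4 of the genes was 11.7 ± 3.02% (SD, n = 11) in mate-paired and 10.2 ± 5.36% (n = 8) in peer-paired females, and 7.95 ± 5.11% (n = 11) in mate-paired and 9.55 ± 3.27% (n = 10) in peer-paired males. Mate-paired animals ran from 1.56% to 17.5% and peer-paired animals from 2.49% to 22.6%, so the pairing types overlapped over nearly their whole range. No test was made on this share, since it is a sum over the chosen genes.

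**Figure D2:**
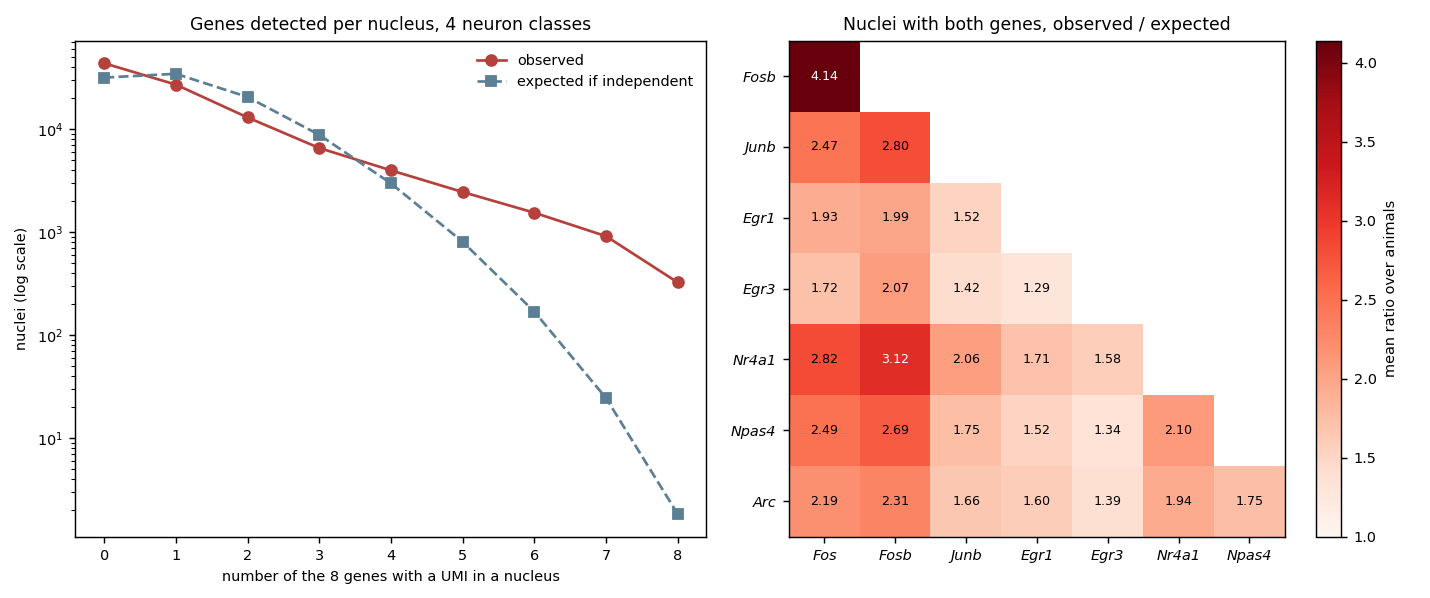
Left, the number of nuclei (y axis, log scale) by how many of the 8 genes had a UMI (x axis) in the 4 neuron classes, observed (red) and expected from independent detection within animal, class and depth (blue); right, the mean over animals of observed over expected nuclei for each pair of genes. The observed line lies above the expected one at 0 genes and at 4 or more, and Fos with Fosb has the highest ratio, 4.14.

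The other genes with the highest ratios include several known as activity-regulated. Averaged over the 8 members in D1 nuclei, Egr2 had a ratio of 3.52, Btg2 3.27 and Nr4a3 3.19, followed by Rgs2 (2.45) and Fosl2 (2.38). Egr2 is a relative of Egr1, Nr4a3 of Nr4a1, Fosl2 is a Fos family member, Btg2 restrains proliferation and Rgs2 restrains G protein signals. D2 nuclei had the same 3 leaders, at 3.40, 3.36 and 3.06. In glutamate neuron-like nuclei the leader was Ccn1, a secreted matrix protein, at 2.33, before Egr2 at 2.15.

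An animal high in a gene in one class tended to be high in it in the other neuron classes. The correlation was computed over animals on log2(CPM + 5) with the mean of each sex and pairing group taken out, with a permutation p adjusted over all genes measured in that pair of classes. The classes of an animal share its library, dissection and free RNA. Between D1 and D2 nuclei, the animals' Npas4 levels had r = 0.91 and rho = 0.89 (n = 40, adjusted permutation p = 2.84e-05, r = 0.87 without the 2 animals farthest from the median). Within 4 blocks of consecutive library numbers from the labels r was 0.84 to 0.93. For Arc r was 0.86 (rho 0.84, 0.82 without those 2, 0.76 to 0.88 within blocks) and for Egr1 0.83 (rho 0.83, 0.82 and 0.72 to 0.92).

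Fos and Nr4a1 each had r = 0.78 between D1 and D2 nuclei (rho 0.78 and 0.69, 0.73 and 0.70 without the 2 farthest animals, within blocks 0.67 to 0.84 and 0.54 to 0.88). Egr3 had r = 0.70 (rho 0.62, 0.70 without those 2), but within blocks its r ran from -0.07 to 0.88. Fosb had r = 0.66 (rho 0.57, 0.57 without the 2 farthest, 0.42 to 0.82 within blocks) and Junb r = 0.53 (rho 0.59, 0.60 and 0.34 to 0.69). All 8 passed the threshold, with adjusted permutation p of 0.00102 for Junb and 2.84e-05 for each of the others, as did 77.3% of the 10934 genes measured in both classes, whose median r was 0.55. Against that background 3.36% of genes had an r at least as high as Npas4, 7.51% as Arc, 10.3% as Egr1 and 52.3% as Junb.

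Over the 6 largest named classes, 78 combinations of a member and a pair of classes could be compared, with a mean of at least 5 UMIs per animal in both classes. In 55 of them the correlation passed (39.0% of 131968 such comparisons over all genes). Between the 4 neuron classes 46 of 48 passed (58.0% of all genes' comparisons there), with a median r of 0.74. The 2 that did not were Junb between D2 and eccentric nuclei (r = 0.16, adjusted permutation p = 0.394) and Junb between glutamate and eccentric nuclei (r = 0.22, adjusted permutation p = 0.265). Without female peer 3 and without male mate 5, each left out alone, the count between neuron classes was again 46 of 48. Glutamate against eccentric nuclei gave r = 0.85 for Nr4a1 (rho 0.83, 0.80 without the 2 farthest animals, 0.71 to 0.90 within blocks), reached by 0.650% of genes, where the median r was 0.31 and 41.8% of genes passed.

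Between a neuron class and astrocyte-like or mature oligodendrocyte-like nuclei 7 of 28 passed, beside 22.0% over all genes, so the members' share lay near the background. Fos in astrocyte-like nuclei followed that in eccentric (r = 0.58, rho 0.58, 0.54 without the 2 farthest animals, 0.35 to 0.68 within blocks, adjusted permutation p = 0.00226), D2 (r = 0.54, rho 0.38, adjusted permutation p = 0.00405) and glutamate nuclei (r = 0.51, rho 0.54, adjusted permutation p = 0.00862). For Fos in D2 and astrocyte-like nuclei r was 0.36 without the 2 farthest animals and 0.01 to 0.88 within blocks. The other 4 were Nr4a1 with glutamate (r = 0.44) and eccentric nuclei (r = 0.46), Egr1 with D1 (r = 0.39) and Arc with eccentric nuclei (r = 0.41), at 0.28 to 0.35 without the 2 farthest animals. Between astrocyte-like and mature oligodendrocyte-like nuclei both members measured, Egr1 (r = 0.65, rho 0.53) and Arc (r = 0.51, rho 0.48), passed, where 23.3% of genes did.

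**Figure D3:**
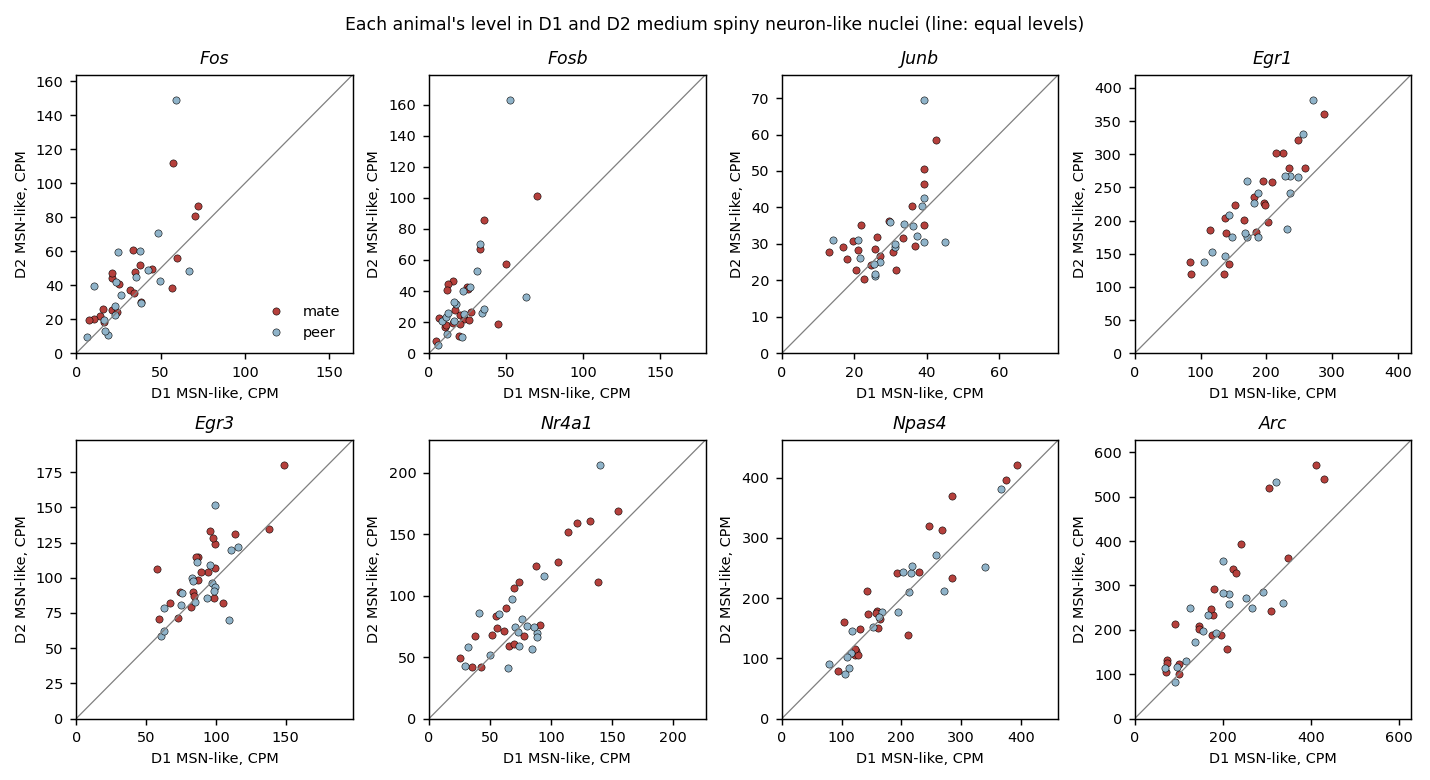
Each point is an animal, with its level in CPM in D1 (x axis) and D2 (y axis) medium spiny neuron-like (MSN-like) nuclei; red points are mate-paired and blue points peer-paired animals, and the line marks equal levels. Npas4, Arc and Egr1 lie close to a line over the whole range (r of 0.91, 0.86 and 0.83 on the log2 scale with group means taken out), Junb and Fosb scatter more, and mate and peer animals mix.

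Over animals the genes also followed each other. All 28 pairs had a positive r over all nuclei, from 0.41 to 0.91, with a median of 0.64. Of these 17 passed the permutation test with adjustment over all 14015 genes, where 0.781% of all gene and member pairs passed. Each pair was adjusted among the correlations of its first gene, in the order in which the 8 genes are named at the start. Adjustment among those of its second gene was not made, and the counts of pairs that passed could differ with it. In D1 nuclei 12 of 28 passed (0.142% of all pairs) and in D2 nuclei 17 of 28 (0.166%). Without female peer 3 these counts were 8, 9 and 12 of 28, and without male mate 5 they were 8, 6 and 15. The genes of a library share its nuclei and depth.

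Fos with Arc had r = 0.91 over all nuclei (rho 0.92, 0.90 without the 2 farthest animals, 0.85 to 0.95 within blocks, adjusted permutation p = 0.00876). Fos with Fosb had r = 0.89 (rho 0.87, 0.86 and 0.83 to 0.97). Npas4 with Arc, the calcium-responsive factor and the synaptic effector, had r = 0.87 over all nuclei, 0.87 in D1 and 0.93 in D2 nuclei (rho 0.90, 0.89 and 0.92). No other gene among 10995 in D2 nuclei had a higher r with Npas4 than Arc had.

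Egr3 and Junb followed the rest least. Over all nuclei no pair with Egr3 passed, with r from 0.41 with Fos to 0.59 with Nr4a1 and with Arc. In D1 nuclei no pair with Junb passed, with r from 0.30 with Egr3 to 0.47 with Egr1. In D2 nuclei Egr3 passed with Egr1 (r = 0.60, rho 0.55, adjusted permutation p = 0.0440), where r within blocks ran from -0.05 to 0.88, and Junb passed with Fos (r = 0.57, rho 0.45, adjusted permutation p = 0.0366), where r without the 2 farthest animals was 0.39.

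How many pairs passed rested in part on 2 animals. Of the 84 pairs in the 3 sets of nuclei 46 passed (0.397% of all gene and member pairs), and 29 passed without female peer 3 and 29 without male mate 5. The median r over all nuclei was 0.61 and 0.64 then, and its highest value 0.90 and 0.89. The strongest pairs kept high values, while the number past the threshold did not keep its size.

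**Figure D4:**
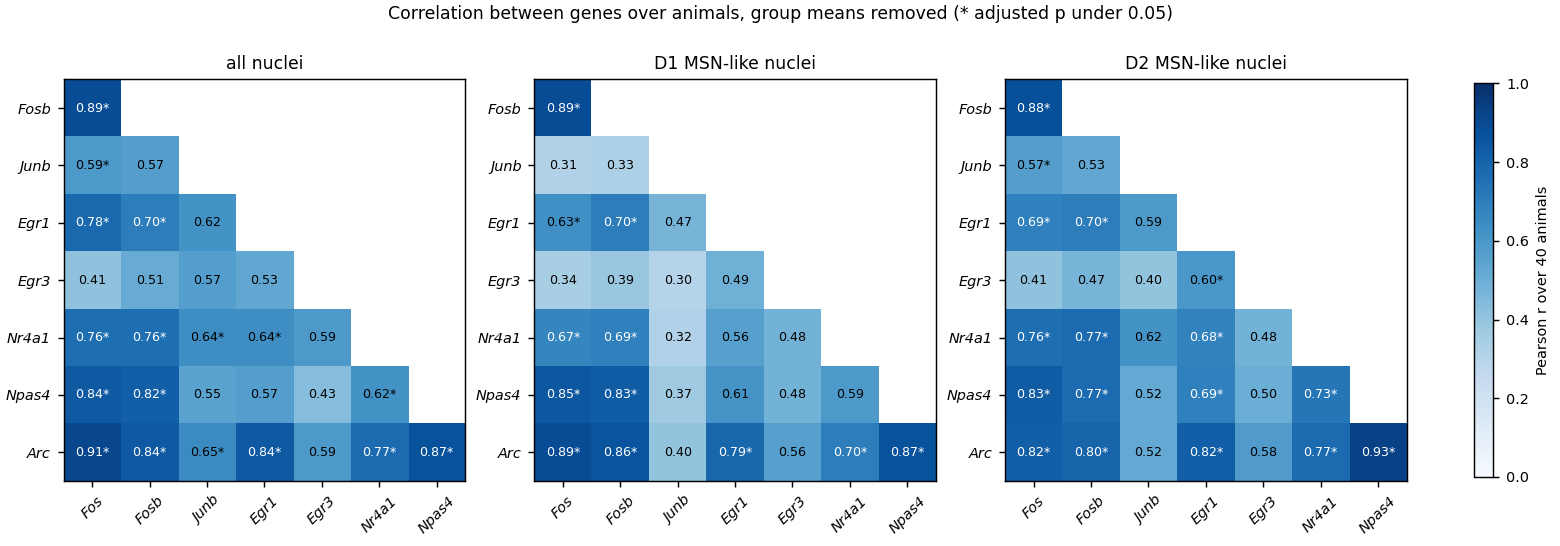
Pearson r over the 40 animals between each pair of the 8 genes on log2(CPM + 5) with group means taken out, over all nuclei and in the D1 and D2 MSN-like (medium spiny neuron-like) classes; darker cells have a higher r, and stars mark an adjusted permutation p under 0.05. Fos, Fosb, Npas4 and Arc form the darkest cells (0.77 to 0.93) in all 3 panels, and the cells of Egr3 and Junb are the palest.

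Outside the 8, the genes with the highest mean rho to them over animals in D1 nuclei were Fosl2 (0.64), Dusp1 (0.63), Egr4 (0.61), Nr4a3 (0.57) and Pim3 (0.57). Dusp1 encodes a phosphatase that ends MAP kinase signals, and Pim3 a kinase. Trib1 (0.55), Pfn3, Egr2 and Mn1 (0.53 each) and Sertad1 (0.52) followed. Over all 11173 genes the median was 0.01. In D2 nuclei the same 10 genes had mean rho from 0.42 for Trib1 to 0.61 for Nr4a3, where the median of 10996 genes was 0.02. Both sets of nuclei come from the same libraries.

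The levels were also set against 4 measures of the libraries, 32 relations in all. Npas4 was the only member past the adjusted test for the median mitochondrial share, with r = -0.58 (rho -0.59, n = 40, adjusted permutation p = 6.17e-04, r = -0.50 without the 2 farthest animals, -0.70 to -0.25 within blocks). Of all genes 21.1% passed for that share. Arc (r = -0.34, rho -0.46, adjusted permutation p = 0.105), Fosb (r = -0.32, rho -0.44, adjusted permutation p = 0.136), Fos (r = -0.29, rho -0.43, adjusted permutation p = 0.190) and Nr4a1 (r = -0.29, rho -0.37, adjusted permutation p = 0.184) had negative values that did not pass. For Arc, Fosb and Fos r was negative in each block (-0.50 to -0.18), and for Nr4a1 it ran from -0.50 to 0.11. Junb (r = -0.15), Egr1 (r = -0.04) and Egr3 (r = -0.00) had values nearer 0. Over medium spiny neuron-like nuclei alone, Npas4 (r = -0.55, rho -0.57, adjusted permutation p = 0.0121) and Fos (r = -0.48, rho -0.47, adjusted permutation p = 0.0374) followed it, where 4.53% of genes did. No member followed the number of nuclei or the glutamate share there, beside 5.32% and 0.124% of genes. Over all nuclei no member passed for median UMIs per nucleus, number of nuclei or share of glutamate neuron-like nuclei, where 0.0856%, 7.69% and 11.9% of genes did. Over all nuclei Npas4 correlated past the threshold with 5.24% of all genes, Fos and Nr4a1 each with 0.214%, Arc with 0.178%, Egr1 with 0.171%, Fosb with 0.0999%, Egr3 with 0.0785% and Junb with 0.0571%. The part of tissue quality in the spread of these genes, and in their shared variation over animals, was not tested.

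Mate-paired and peer-paired animals were compared to ask whether the kind of partner goes with the level of these genes after 16 days. None of the 8 differed by the test over all nuclei. Fos ran from 19.9 to 118 CPM (median 42.1) in 22 mate-paired and from 14.6 to 120 CPM (median 49.4) in 18 peer-paired animals, and the ranges overlapped almost wholly. The log2 fold change of mate over peer, averaged over the sexes, was -0.08 (SE 0.21, adjusted p = 0.930 by edgeR's quasi-likelihood test), with 8 of 22 mates above the peers' mean. Fosb ran from 6.76 to 83.6 CPM (median 20.0) and from 6.39 to 66.5 CPM (median 23.0), with a log2 fold change of 0.07 (SE 0.25).

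Junb medians were 24.6 CPM in mates and 28.1 CPM in peers, Egr1 medians 237 and 263 CPM, and Egr3 medians 79.3 and 80.3 CPM. Their log2 fold changes were -0.00, -0.05 and 0.16, with SE of 0.09, 0.14 and 0.11. Nr4a1 had the largest value, 0.28 (SE 0.17, adjusted p = 0.705 by edgeR), with medians of 80.8 CPM in mates and 70.8 CPM in peers and 12 of 22 mates above the peers' mean. Npas4 had 0.12 (SE 0.20) and Arc 0.21 (SE 0.20). The size of these values rested in part on 2 animals. Without male mate 5 Nr4a1 was at 0.17, Arc at 0.08, Egr3 at 0.09, Egr1 at -0.11, Fos at -0.18 and Fosb at -0.12, and without female peer 3 Nr4a1 was at 0.42, Arc at 0.30, Npas4 at 0.23 and Fosb at 0.25. With blocks of 10 library numbers as a term Fos was at -0.23 and Arc at 0.12. None of the 8 was called in any of the 9 alternatives run over all nuclei. Arc ran from 79.4 to 580 CPM in mates and from 77.0 to 413 CPM in peers. In all 8 genes the pairing types overlapped.

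The count of members called for pairing was 0 of 8 by edgeR and 0 of 8 by DESeq2, and 0% of the 13731 genes tested were called by edgeR. At an unadjusted p under 0.05 there were 0 of 8 members by either tool, 972 genes (7.08%) by edgeR and 1023 genes by DESeq2. In simulated counts this fit recovered 80% of genes changed 1.5-fold and 95% of those changed 2-fold. The changed genes were drawn from all genes. Fosb, Fos, Arc and Npas4 vary more than most, so these shares need not hold for them. Differences of these sizes in such genes, and smaller ones in any gene, can go uncalled with this number of animals.

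Within classes, 49 pairs of a member and a class in 10 classes had enough counts for the test. None was called by edgeR or by DESeq2, where edgeR called 0% of the 86628 pairs of a gene and a class. At an unadjusted p under 0.05 there were 3 member pairs by either tool and 4937 pairs (5.70%) over all genes by edgeR. These 3 were Egr1 in microglia-like, Nr4a1 in astrocyte-like and Arc in vascular-like nuclei. By edgeR there were 6 of 50 without female peer 3 (5.29% of all pairs) and 2 of 49 without male mate 5 (5.31%). Without a filter on low counts there were 15 of 104 (5.80%). No member pair was called in these fits.

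Egr1 in microglia-like nuclei ran from 0 to 322 CPM (median 101) in 22 mate-paired and from 0 to 170 CPM (median 49.9) in 17 peer-paired animals, which overlapped, from means of 10.4 and 4.41 UMIs per animal. Its log2 fold change was 1.07 (SE 0.33, unadjusted p = 0.00238, adjusted p = 0.164 by edgeR), with 17 of 22 mates above the peers' mean. Among the alternatives run it passed only where each animal needed at least 50 nuclei of the class (1.29, adjusted p = 0.0235 by edgeR). Over all genes and classes that fit called 314 of 78759 combinations, against 0 of 86628 in the main fit, so the call was not particular to Egr1. In microglia-like nuclei 19.0% of all 3524 genes had an unadjusted p under 0.05. The 8 pan medium spiny neuron markers summed to a median of 1305 CPM (443 to 3528) in mates and 585 CPM (323 to 3303) in peers, and 7 glutamate neuron markers to 292 CPM (39.2 to 947) and 130 CPM (0 to 585). The 8 microglia markers had medians of 24099 CPM (3032 to 53663) in mates and 31654 CPM (8218 to 48758) in peers. The part of this neuronal RNA in the Egr1 difference was not tested.

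In astrocyte-like nuclei Nr4a1 was at -0.49 on the log2 scale for mate over peer (SE 0.21, adjusted p = 0.911 by edgeR), with 5 of 22 mates above the peers' mean, and in vascular-like nuclei Arc was at 0.52 (SE 0.25, adjusted p = 1.000), with 15 of 20 mates above it. In the 4 neuron classes no member had an unadjusted p under 0.05 for pairing in the main fit.

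**Figure D5:**
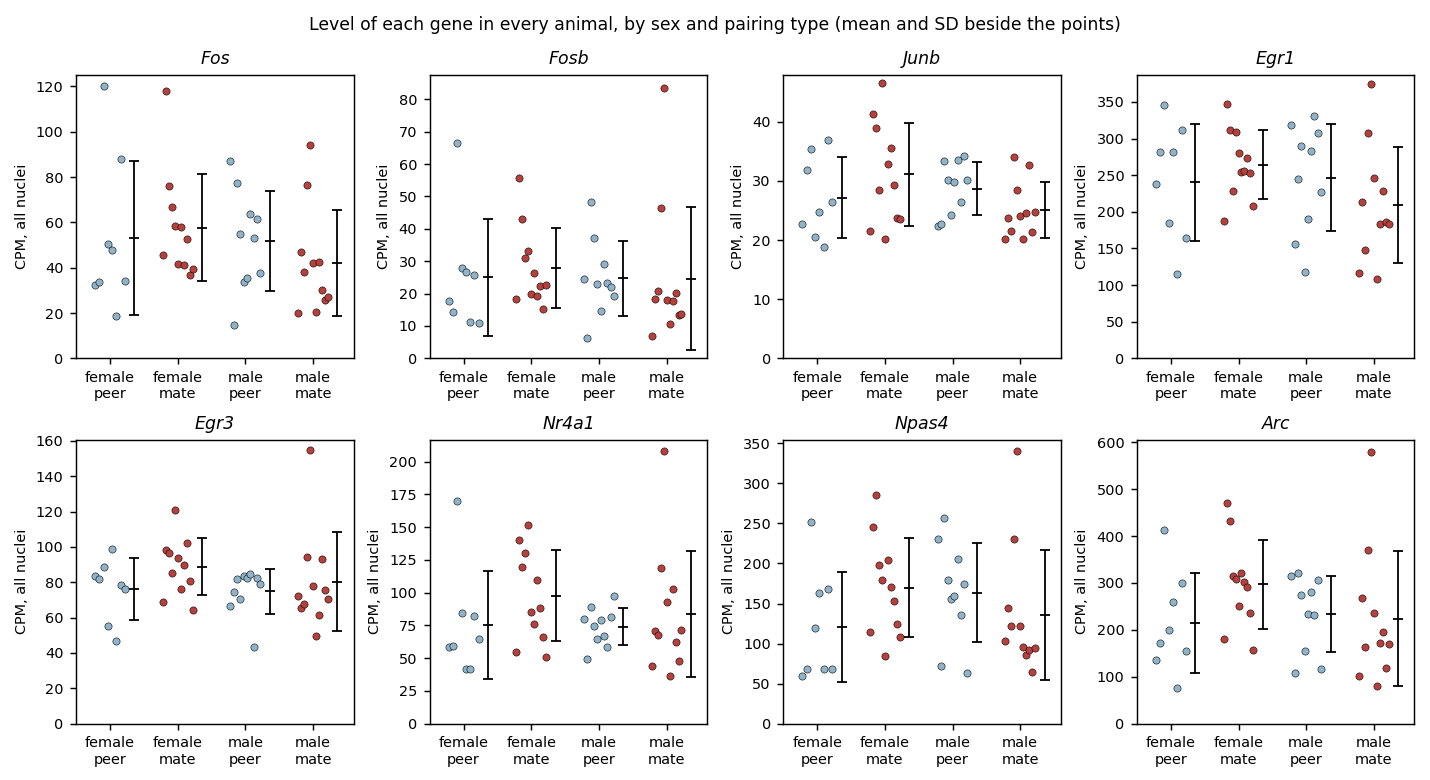
Each point is an animal's level over all nuclei in CPM (y axis, from 0), by sex and pairing type, with the mean and SD beside the points; blue points are peer-paired and red points mate-paired animals. In every panel the groups overlap, with male mate 5 and female peer 3 as the high points of their groups for most genes.

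The sexes were compared in their response to pairing type by the interaction term. All 8 interaction values were positive, meaning a higher mate minus peer difference in females, with a median of 0.40 on the log2 scale against -0.01 over all genes, and none passed. The largest were Npas4 (0.78, SE 0.39, unadjusted p = 0.0548) and Arc (0.56, SE 0.39), and Junb had the lowest unadjusted p (0.41, SE 0.20, unadjusted p = 0.0495). Adjusted p were 1.000 by edgeR for all 8, and 0% of genes were called by edgeR or DESeq2, with 260 of 13731 genes (1.89%) under an unadjusted p of 0.05. The 8 genes vary together over animals, so their shared sign is not 8 separate results.

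Npas4 medians were 171 CPM in female mates (85.1 to 286) and 94.4 CPM in female peers (59.1 to 252), and 103 CPM in male mates (64.9 to 340) and 167 CPM in male peers (63.2 to 257). In females 8 of 11 mates lay above the peers' mean, with a log2 fold change of 0.51 (SE 0.29, unadjusted p = 0.0873, adjusted p = 0.643 by edgeR), and 7.72% of all genes had an unadjusted p under 0.05 there. In males 2 of 11 did, with -0.27 (SE 0.27, adjusted p = 1.000), beside 1.62% of all genes under an unadjusted p of 0.05. Arc medians were 303 and 186 CPM in female mates and peers and 173 and 254 CPM in male mates and peers. Without female peer 3 the interaction of Npas4 was 1.00 (unadjusted p = 0.0138) and without male mate 5 it was 1.01 (unadjusted p = 0.00875), with adjusted p of 1.000 by edgeR in both. The mitochondrial share, which Npas4 followed over animals, differed between these groups as well. Its median over animals was 0.387% in female peers (0.209 to 0.728), 0.292% in female mates (0.210 to 0.441), 0.301% in male mates and 0.302% in male peers, and its part in the Npas4 values was not tested. Without female peer 1, the animal with the highest share, the female log2 fold change of Npas4 was 0.41 and the interaction 0.68. Groups overlapped in both sexes, and the values stand as descriptions.

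Within classes the interaction of Npas4 was 0.70 (SE 0.35, unadjusted p = 0.0493) in D1 and 0.79 (SE 0.37, unadjusted p = 0.0393) in D2 nuclei, with adjusted p of 1.000 by edgeR in both. In all, 4 of 49 member and class pairs had an unadjusted interaction p under 0.05, beside 2.71% of all pairs, and none of the 49 was called, where 0.00115% of pairs were. DESeq2 also called none, with 2 under an unadjusted p of 0.05. The edgeR count moved with single animals. It was 8 of 50 without female peer 3 (2.56% of all pairs) and 11 of 49 without male mate 5 (2.71%). Without female peer 1 it was 1 of 50 (2.75%), and with blocks of 10 library numbers as a term 7 of 49 (2.63%). No member pair was called in these fits.

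Between females and males 0 of 8 members differed over all nuclei by edgeR and by DESeq2, where edgeR called 3 genes (0.0218%). At an unadjusted p under 0.05 there was no member by edgeR, and 8.32% of all genes. The largest value was that of Fos, 0.24 higher in females on the log2 scale (SE 0.21, adjusted p = 0.738 by edgeR), with ranges of 18.7 to 120 CPM in 19 females and 14.6 to 94.0 CPM in 21 males.

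Within classes 0 of 49 member pairs were called for sex by edgeR or by DESeq2, where edgeR called 0.0219% of all pairs of a gene and a class. At an unadjusted p under 0.05 there were 4 (beside 5.01% of all pairs), and the values were higher in females in 40 of the 49. In D2 nuclei the values of all 8 were higher in females, among them Fos at 0.50 (SE 0.23, unadjusted p = 0.0323, adjusted p = 0.887 by edgeR), Nr4a1 at 0.39 (SE 0.17, unadjusted p = 0.0236, adjusted p = 0.876) and Egr1 at 0.27 (SE 0.12, unadjusted p = 0.0315, adjusted p = 0.881). The fourth was Arc in vascular-like nuclei, at 0.63 (SE 0.25, unadjusted p = 0.0136, adjusted p = 0.445). The genes vary together over animals, so their shared sign is not 8 separate results. The count of 4 moved with single animals and with the processing. Without female peer 3 it was 1 of 50 (4.64% of all pairs), with 30 values higher in females. Without male mate 5 it was 8 of 49 (4.79%), with 46 higher, and without female peer 1 it was 6 of 50 (4.74%). With doublets kept it was 0 of 55 (4.95%), and with blocks of 10 library numbers as a term 1 of 49 (4.52%). No member pair was called for sex in these fits.

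The other activity-regulated genes, in 6 groups of 67 names, were described beside the members. Of these 66 are listed and 62 had enough counts, and none was called for pairing by edgeR. At an unadjusted p under 0.05 there were 8 (12.9%, beside 7.08% of all genes). Among the early factors, Nab2, a co-repressor of Egr proteins, was at 0.18 on the log2 scale (SE 0.07) and Per1, a clock gene, at 0.20 (SE 0.08). Among synaptic and secreted effectors, Sgk1, a kinase induced by glucocorticoids, had -0.44 (SE 0.15), Sorcs3 0.24 (SE 0.09) and the scaffold gene Homer1 0.23 (SE 0.10). All had an adjusted p of 0.677 by edgeR.

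In the remaining groups Jund, the AP-1 factor, had -0.14 (SE 0.07), the phosphatase gene Dusp5 0.25 (SE 0.12) and the upstream factor gene Mef2c -0.25 (SE 0.12). The relatives Nr4a3 (0.23, SE 0.16), Egr2 (0.20, SE 0.23) and Egr4 (-0.04, SE 0.13) had adjusted p of 0.735 to 0.951. Over animals in D1 nuclei the median rho to the 8 members was 0.55 for the Egr and Nr4a relatives, 0.45 for the AP-1 factors and 0.28 for the feedback enzymes, and 0.11, 0.06 and -0.02 for the other early factors, the effectors and the upstream kinases and factors. Of 8 stress genes 4 were listed, and none of these had an unadjusted p under 0.05 for pairing.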

How the data were processed

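The deposited values are raw counts of UMIs per gene and barcode, which per the submitters' processing notes were made with Cell Ranger 3.1.0; genome build and annotation are not given in the sources used here. Barcodes under 500 UMIs or above 5% mitochondrial UMIs were left out, and 7608 likely doublets were removed at an assumed rate. Nuclei were clustered (2000 variable genes without the members and other activity-regulated genes, 30 components, Leiden resolution 1) into 33 clusters and named "-like" from 17 marker lists.

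Counts were summed per animal and class with at least 20 nuclei. Pairing, sex and their interaction were tested with edgeR 4.0.16 (quasi-likelihood, TMM, filterByExpr, 1 mean per group) and with DESeq2 1.42.0 as alternative, with Benjamini-Hochberg adjustment over all genes. Correlations and class differences used 100000 permutations, whose smallest p is 1.00e-05, with Benjamini-Hochberg adjustment over all genes measured; the plan had been to adjust over the members alone. The scripts were tested on simulated data, with 15 false calls among 13731 genes. Comparisons between the largest clusters of the classes, co-detection within clusters and fits without female peer 3 or male mate 5 were added after seeing the data. All members with enough counts entered each comparison, but not every member's value is printed. Other genes named are up to 3 per group with the lowest p, the 10 most alike in D1 nuclei, and leading genes in co-detection. The members and lists were chosen with earlier results of these data known. Labels number the libraries but do not say whether same-group animals were handled together, so p-values measure the spread between animals as sampled. Replicate numbers are names in accession order.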

Additional observations from a re-analysis of the deposited data

Results flagged for a closer look

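In groups of 8 and 10 animals, 80 sets of values (8 genes, 5 sets of nuclei, the 2 peer groups) were searched for an animal far from the others, and 18 (22.5%) held one. Chance gives about 1 in 20 for values with a normal distribution, which CPM need not have. The sets are also not independent, since the genes vary together over animals.

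Of the 18, female peer 3 was the high animal in 13. Over all nuclei its Fosb was 66.5 CPM and its Nr4a1 170 CPM, where the next female peers had 28.0 and 84.5 CPM. In D1 medium spiny neuron-like nuclei its Npas4 was 367 CPM (next 195). In D2 nuclei its Fos was 149 CPM (next 70.5), Fosb 163 CPM (next 70.5), Junb 69.5 CPM (next 42.5), Nr4a1 206 CPM (next 116), Npas4 382 CPM (next 177) and Arc 533 CPM (next 280). In eccentric nuclei its Fos was 134 CPM (next 69.3), Fosb 108 CPM (next 34.4), Nr4a1 242 CPM (next 104) and Npas4 255 CPM (next 152). It had 68 eccentric nuclei, the fewest of any animal (108 to 1075 in the others), and these values rest on 31, 25, 56 and 59 UMIs.

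Male peer 5 was high in glutamate neuron-like nuclei, with Fosb at 199 CPM (next 91.1) and Junb at 99.5 CPM (next 43.1), and female peer 7 had Junb at 72.6 CPM there (next 43.5). Male peer 5 had 24 nuclei of this class, where every other animal had 136 to 2470, so that its values rest on 10 UMIs of Fosb and 5 of Junb. Female peer 7 had 123 UMIs of Junb in 499 nuclei. Male peer 3 had Fosb at 62.8 CPM in D1 nuclei (next 35.8). Male peer 8 was low in Egr3 over all nuclei, at 43.3 CPM (next 66.4).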

How the results depend on the processing

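Counts of members called for pairing, sex and their interaction over all nuclei were 0 of 8 under each of 9 alternatives, and counts of neighbouring classes told apart and of class pairs called stayed within 1.5 times, though not over the same totals. Neighbours told apart were 32 of 96, 29 of 104 with the members among the clustering genes, 35 of 104 with doublets kept and 42 of 96 with a pseudocount of 1. Class pairs called were 55 of 78, 62 of 106 with doublets kept and 52 to 56 of 78 otherwise. With at least 50 nuclei per animal, 1 member was called for pairing within classes, Egr1 in microglia-like nuclei (1.29). Over all genes that fit called 314 of 78759 gene and class combinations, against 0 of 86628 in the main fit. Without a filter on low counts, 1 of 104 member combinations was called for pairing in females, beside 32 of 201717 over all genes. Pairs of members called fell from 46 to 29 without female peer 3 and to 29 without male mate 5, both left out after their values were seen. The median ratio of co-detection was 2.55 after thinning to 1000 UMIs, without depth bins, and 1.83 within clusters. Over medium spiny neuron-like nuclei 2 members in place of 1 followed a library measure. The cause of these changes was not tested. Between the largest clusters D2 minus D1 was -0.02 for Egr1, -0.19 for Nr4a1 and -0.13 for Npas4, and no longer passed for Fos (0.08), Fosb (0.06), Egr3 (0.10) and Arc (0.03). In glutamate minus D2 Egr3 no longer passed (-0.05), while Npas4, at 0.00 over the whole classes (0.26), and Fosb (0.31) did. Eccentric minus D2 no longer passed for Npas4 (-0.06) and newly passed for Fos (0.54), Fosb (0.32), Junb (0.26) and Egr3 (0.21). All of these tests leave out the other clusters of each class, among them D2 cluster 10 and eccentric cluster 11. Without a call, glutamate minus eccentric was -0.04 for Fosb and -0.11 for Junb, and glutamate minus D1 was 0.05 for Egr3.

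Of the values per gene, those near 0 changed sign without being called. For pairing, Fos was 0.05 without female peer 3; Fosb was -0.05 with blocks of 10 library numbers as a term and -0.12 without male mate 5; Npas4 was -0.03 with those blocks and -0.00 without male mate 5. Junb was 0.00 by DESeq2, without a filter on low counts and without male mate 2, 0.01 with doublets kept, 0.03 with the blocks and 0.03 without female peer 3. Fos was -0.23 with the blocks and Fosb 0.25 and Npas4 0.23 without female peer 3. Nr4a1 ran from 0.17 without male mate 5 to 0.42 without female peer 3 and Arc from 0.08 to 0.30, with 0.12 for Arc with the blocks, none called. No paired analysis was possible because the replicate numbers follow accession order and the labels do not name partners. Depth limits the glia and vascular classes, where a member had a mean of 0.282 to 17.2 UMIs per animal.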
